A study of Schizosaccharomyces pombe with 6 samples.

Results

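The 5 genes followed here act in nitrogen, uracil and amino acid metabolism of the fission yeast Schizosaccharomyces pombe. They were car1 (SPBP26C9.02c, arginase), arg7 (SPBC1773.14, argininosuccinate lyase), urg2 (SPAC1002.17c, a predicted uracil phosphoribosyltransferase), SPCC1450.07c (dao1, a predicted D-amino acid oxidase) and SPAC1039.08 (a predicted serine acetyltransferase). Each was read by 1 probe set, so the 5 genes are 5 of the 76 S. pombe probe sets named in the files and of 8960 probe sets tested. They were taken by name from the 3 lists of differing probe sets that the authors had drawn up from the same arrays. The genes were thus selected on measured values, namely the authors' unadjusted p-values on these 6 arrays, and the comparison that lists a gene is given here as a description without a test. A comparison that does not list a gene shares arrays with one that does, so its test is no separate evidence.

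The study measured messenger RNA on Affymetrix yeast arrays in cells overexpressing Spc1K49R, cells overexpressing Spc1 and control cells transformed with the empty vector, with 2 arrays in each group labelled as biological replicates. Spc1, also called Sty1, is the stress-activated MAP kinase encoded by sty1, and Spc1K49R is a form known as catalytically inactive. The source of the control arrays is labelled as a wild strain, each overexpressing source is named for its own form, and the promoter, growth medium and auxotrophic markers were not given in the sources used here. Signals are on a log2 scale, and the authors had centred every probe set on its own median over the 6 arrays. They give differences between arrays and no level, and one gene's value cannot be set against another's as an amount of RNA.

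Fission yeast makes arginine from ornithine and citrulline, with argininosuccinate lyase releasing arginine in the last step, and breaks it down again with arginase, which yields ornithine and urea. Uracil taken up from the medium is joined to a ribose phosphate by uracil phosphoribosyltransferase, and the urg genes are known for their induction by added uracil. D-amino acid oxidase releases ammonia from D-amino acids, and serine acetyltransferase starts the synthesis of cysteine from serine. Poor nitrogen supply is also the main signal for mating and meiosis in this yeast, and Sty1 is known to act in that response.

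The arrays stood apart in 2 ways that touch every value below. The sty1 probe set read 1.197 on Spc1K49R replicate 1 and -1.37 on the array labelled Spc1K49R replicate 2, 1.04 and 1.49 on the Spc1 arrays and -1.07 and -1.04 on the empty-vector arrays, so the array labelled Spc1K49R replicate 2 goes against its label. Spc1 replicate 1 had an SD of 0.82 over the 8960 probe sets, against 0.11 to 0.31 on the other 5 arrays. Over 6 S. pombe control genes its mean 5' minus 3' difference was -1.53, where the other arrays lay between -0.56 and 0.40. Poly-A control probe sets, which read RNA added during processing, had medians of 5.23 and 1.34 on the Spc1 arrays and at most 0.15 on the other 4. The part of these features in the differences of the 5 genes was not tested. Values without Spc1 replicate 1 or without the array labelled Spc1K49R replicate 2 are given beside the results. The higher poly-A readings were on both Spc1 arrays, so they cannot be told apart from Spc1 overexpression, and leaving out 1 array does not remove them.

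Across the 5 genes, car1, urg2, SPCC1450.07c and SPAC1039.08 shared a pattern, lower on both Spc1 arrays than on the other 4 arrays. With arg7 the pattern was different, since it was low on 1 Spc1 array only. The shared pattern is in large part built in, because the authors' lists already gave those genes as lower with Spc1. How many of all 8960 probe sets have this full order was not counted. With empty vector as the only reference, 14.4% of them were lower on each Spc1 array. With Spc1K49R as the only reference, 21.6% were. Nothing is read from the shared pattern. None of the 5 passed in any comparison with limma after Benjamini-Hochberg adjustment, and neither did any of the 8960 probe sets (0% called in each of the 3 comparisons). At an unadjusted p under 0.05 the same model had 8 probe sets (0.0893%) for Spc1K49R against empty vector, 108 (1.21%) for Spc1 against empty vector and 91 (1.02%) for Spc1K49R against Spc1.

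**Figure D1:**
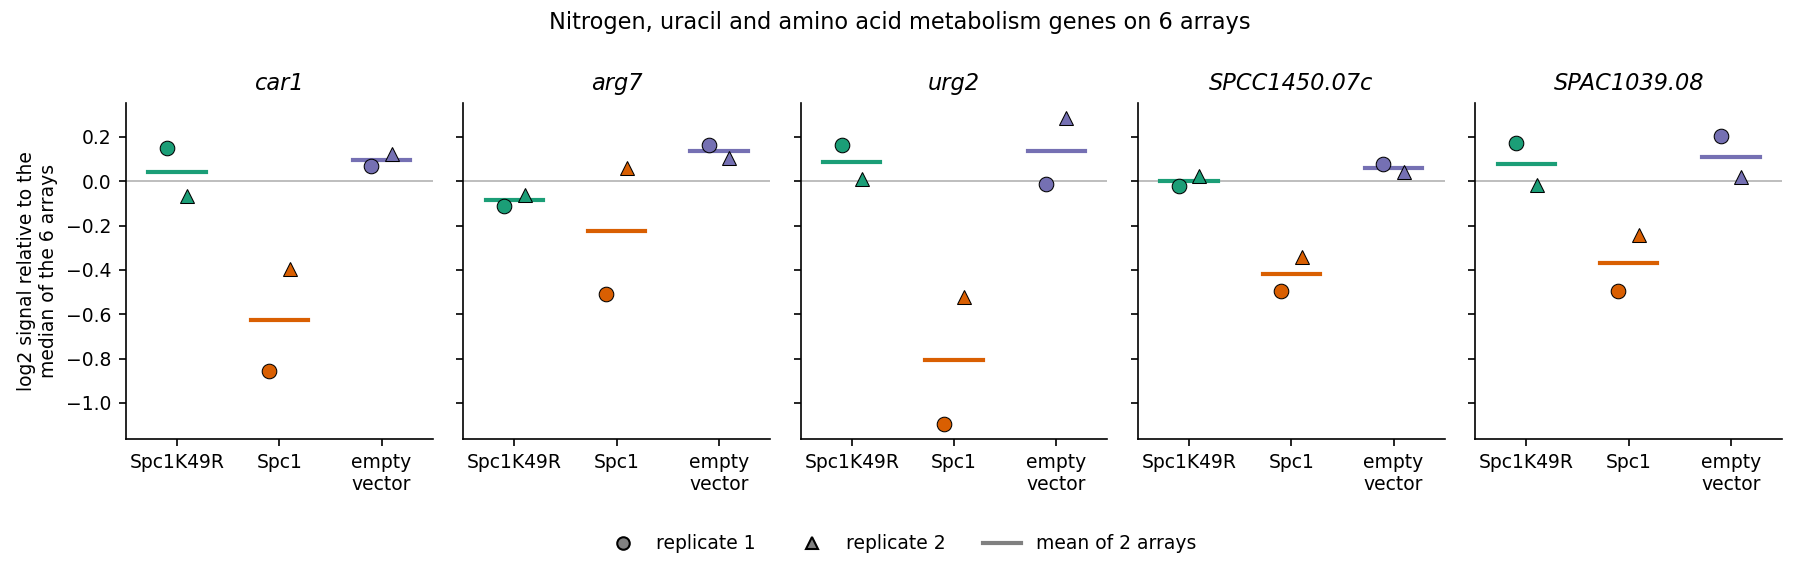
Log2 signal of the 5 genes relative to the median of the 6 arrays (vertical axis), by group; circles are replicate 1, triangles replicate 2 and bars the mean of 2 arrays. On Spc1 replicate 1 all 5 genes lie between -1.09 and -0.49, whereas on Spc1 replicate 2 arg7 stands at 0.06 and the other 4 genes between -0.52 and -0.24.

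Arginine breakdown was the first step examined. Arginase gene car1 read 0.15 on Spc1K49R replicate 1 and -0.07 on the array labelled Spc1K49R replicate 2, -0.85 and -0.40 on the Spc1 arrays, and 0.07 and 0.12 on the empty-vector arrays. Both Spc1 arrays lay below all 4 others, and the Spc1K49R and empty-vector arrays overlapped. The mean was 0.04 ± 0.15 with Spc1K49R, -0.63 ± 0.32 with Spc1 and 0.09 ± 0.04 with empty vector (SD, n = 2 each). Signal with Spc1 was thus 1.65-fold lower than with empty vector, a log2 difference of -0.72 (SE 0.21), and 1.41-fold lower on Spc1 replicate 2 alone. The difference between Spc1K49R and Spc1 was 0.67 (SE 0.21), 0.44 without Spc1 replicate 1 and 0.45 once each array's 5' minus 3' difference entered the fit as a covariate. Between Spc1K49R and empty vector, the comparison that does not list car1, it was -0.052 with a 95% interval from -0.58 to 0.47 (limma unadjusted p = 0.809, adjusted p rounded to 1). Without the array labelled Spc1K49R replicate 2 the difference was 0.057. Both groups of this comparison took part in the comparisons that list car1, so nothing is read from its p-value.

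Arginine synthesis gave another picture. The argininosuccinate lyase gene arg7 read -0.11 on Spc1K49R replicate 1 and -0.06 on the array labelled Spc1K49R replicate 2, -0.51 and 0.06 on the Spc1 arrays, and 0.17 and 0.11 on the empty-vector arrays. The Spc1 arrays fell on either side of the Spc1K49R arrays, and all 4 overexpression arrays lay below both empty-vector arrays. Its mean was -0.09 ± 0.03 with Spc1K49R, -0.22 ± 0.40 with Spc1 and 0.14 ± 0.04 with empty vector (SD, n = 2 each). The authors listed arg7 for Spc1K49R against empty vector, where the log2 difference was -0.22 (SE 0.22), or 1.17-fold lower, and it was -0.25 without the array labelled Spc1K49R replicate 2. For Spc1 against empty vector, where arg7 is not listed, the difference was -0.36 (SE 0.22, 95% interval -0.93 to 0.21, limma adjusted p = 0.79). It rested on Spc1 replicate 1, since it was -0.074 without that array and -0.64, with a limma adjusted p of 0.019, without Spc1 replicate 2, where Spc1 replicate 1 stood alone and 2968 of the 8960 probe sets passed. With the 5' minus 3' covariate it was -0.17. For Spc1K49R against Spc1 it was 0.14 (SE 0.22, limma adjusted p = 0.813), and the sign turned to -0.15 without Spc1 replicate 1 and to -0.12 with the 5' minus 3' covariate.

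The 2 arginine genes lie close together in the genome. In the RefSeq gene table of assembly ASM294v3 arg7 and car1 are on chromosome II with 3 protein-coding genes between them, and the coding genes on either side of arg7 are SPBC1773.13 and dal52. On Spc1 replicate 2 arg7 stood at 0.06 and car1 at -0.40 from the median of the arrays. The arg7 value lies in the middle of its arrays, where the centring sets the sign. Set against the empty-vector mean, both genes were lower on that array, at -0.07 for arg7 and -0.49 for car1.

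Of the 5 genes urg2 showed the widest difference between Spc1 and empty vector. Its probe set read 0.17 on Spc1K49R replicate 1 and 0.01 on the array labelled Spc1K49R replicate 2, -1.09 and -0.52 on the Spc1 arrays, and -0.01 and 0.29 on the empty-vector arrays. Spc1 arrays were again below all others, and the empty-vector arrays enclosed both Spc1K49R values. Group means were 0.09 ± 0.11 with Spc1K49R, -0.81 ± 0.40 with Spc1 and 0.14 ± 0.21 with empty vector (SD, n = 2 each). Against empty vector, urg2 was 1.93-fold lower with Spc1, a log2 difference of -0.94 (SE 0.24), and 1.58-fold lower on Spc1 replicate 2 alone. Spc1K49R exceeded Spc1 by 0.90 (SE 0.24), by 0.69 between Spc1K49R replicate 1 and Spc1 replicate 2 alone, and by 0.54 with the 5' minus 3' covariate. For Spc1K49R against empty vector, where urg2 is not listed, the difference was -0.049 with a 95% interval from -0.68 to 0.58 (limma unadjusted p = 0.849, adjusted p rounded to 1), and 0.028 without the array labelled Spc1K49R replicate 2. Both groups of this comparison took part in the comparisons that list urg2, so nothing is read from its p-value.

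A neighbour of urg2 was also named in the files. This gene, urg1 (SPAC1002.19), annotated there as a predicted GTP cyclohydrolase II, was listed by the authors for Spc1 against empty vector. The gene table places urg2, urg3 and urg1 next to each other on chromosome I, with urg3 as the only coding gene between the other two. The urg1 probe set read 0.09 on Spc1K49R replicate 1 and -0.09 on the array labelled Spc1K49R replicate 2, -0.81 and -0.27 on the Spc1 arrays, and 0.16 and 0.23 on the empty-vector arrays. As with urg2, both Spc1 arrays lay below the other 4, but here both Spc1K49R arrays were also below both empty-vector arrays. Its log2 difference from empty vector was -0.20 (SE 0.22) with Spc1K49R, or -0.11 without the array labelled Spc1K49R replicate 2, and -0.74 (SE 0.22) with Spc1. On Spc1 replicate 2 alone urg1 was 1.38-fold lower than the empty-vector mean. For Spc1K49R against Spc1, which does not list urg1, the difference was 0.54 (SE 0.22, 95% interval -0.02 to 1.10, limma adjusted p = 0.717). That difference was 0.27 without Spc1 replicate 1 and 0.28 with the 5' minus 3' covariate. No probe set was named urg3 in the files, and its values were not analysed here.

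**Figure D2:**
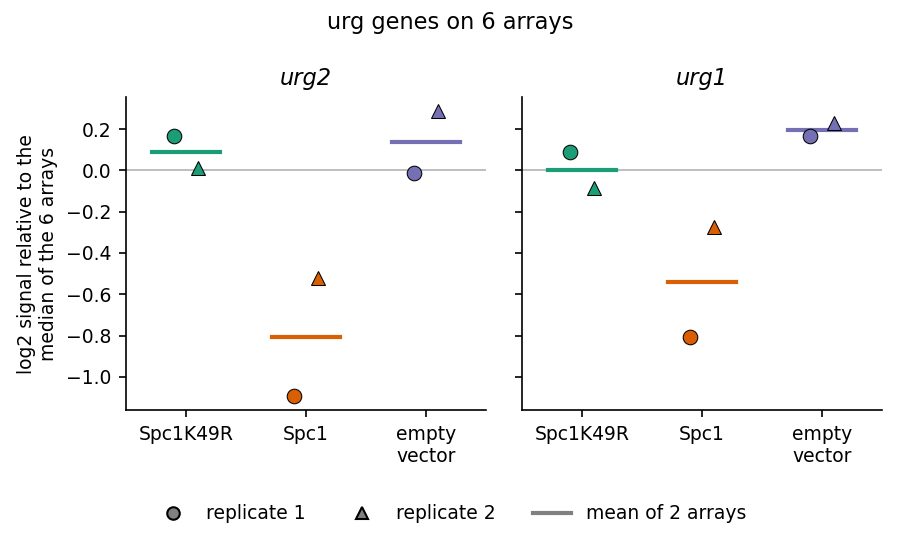
Log2 signal of urg2 and urg1 relative to the median of the 6 arrays (vertical axis), by group; circles are replicate 1, triangles replicate 2 and bars the mean of 2 arrays. The Spc1 arrays are the lowest for both genes, at -1.09 and -0.52 for urg2 and -0.81 and -0.27 for urg1.

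The D-amino acid oxidase gene SPCC1450.07c had the smallest standard errors of the 5. It read -0.02 on Spc1K49R replicate 1 and 0.02 on the array labelled Spc1K49R replicate 2, -0.49 and -0.34 on the Spc1 arrays, and 0.08 and 0.04 on the empty-vector arrays. The 3 groups did not overlap, with Spc1 lowest and empty vector highest. The means were 0.00 ± 0.03 with Spc1K49R, -0.42 ± 0.11 with Spc1 and 0.06 ± 0.03 with empty vector (SD, n = 2 each). The authors listed it for the comparison of the 2 forms alone, in which Spc1K49R exceeded Spc1 by 0.42 (SE 0.14), or 1.34-fold. That difference was 0.34 without Spc1 replicate 1 and 0.35 with the 5' minus 3' covariate.

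For Spc1 against empty vector, where SPCC1450.07c is not listed, the log2 difference was -0.48 (SE 0.14, 95% interval -0.83 to -0.12), 1.39-fold lower, with an unadjusted p of 0.0176 and a limma adjusted p of 0.79. It was -0.40 without Spc1 replicate 1. The Spc1 arrays of this comparison are the ones on which the gene had been listed. For Spc1K49R against empty vector, also unlisted, it was -0.060 (SE 0.14, 95% interval -0.41 to 0.29, limma unadjusted p = 0.682, adjusted p rounded to 1), and -0.083 without the array labelled Spc1K49R replicate 2.

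The predicted serine acetyltransferase gene SPAC1039.08 read 0.17 on Spc1K49R replicate 1 and -0.02 on the array labelled Spc1K49R replicate 2, -0.50 and -0.24 on the Spc1 arrays, and 0.21 and 0.02 on the empty-vector arrays. Both Spc1 arrays were lower than the rest, and the Spc1K49R and empty-vector values spanned nearly the same range. In the gene table it lies on chromosome I directly beside isp5, an amino acid permease gene known for its induction in nitrogen starvation, which has no named probe set in the files. The mean was 0.08 ± 0.13 with Spc1K49R, -0.37 ± 0.18 with Spc1 and 0.11 ± 0.13 with empty vector (SD, n = 2 each). The listed difference of Spc1 from empty vector was -0.48 (SE 0.17), or 1.40-fold lower, and 1.28-fold lower on Spc1 replicate 2 alone. In the comparison of the 2 forms, which does not list it, Spc1K49R exceeded Spc1 by 0.45 (SE 0.17, 95% interval 0.01 to 0.89), with an unadjusted p of 0.048 and a limma adjusted p of 0.717. It was 0.32 without Spc1 replicate 1 and 0.42 between Spc1K49R replicate 1 and Spc1 replicate 2 alone. The Spc1 arrays of this comparison are the ones on which the gene had been listed. For Spc1K49R against empty vector the difference was -0.033 (95% interval -0.48 to 0.41, limma unadjusted p = 0.853, adjusted p rounded to 1), and 0.061 without the array labelled Spc1K49R replicate 2.

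**Figure D3:**
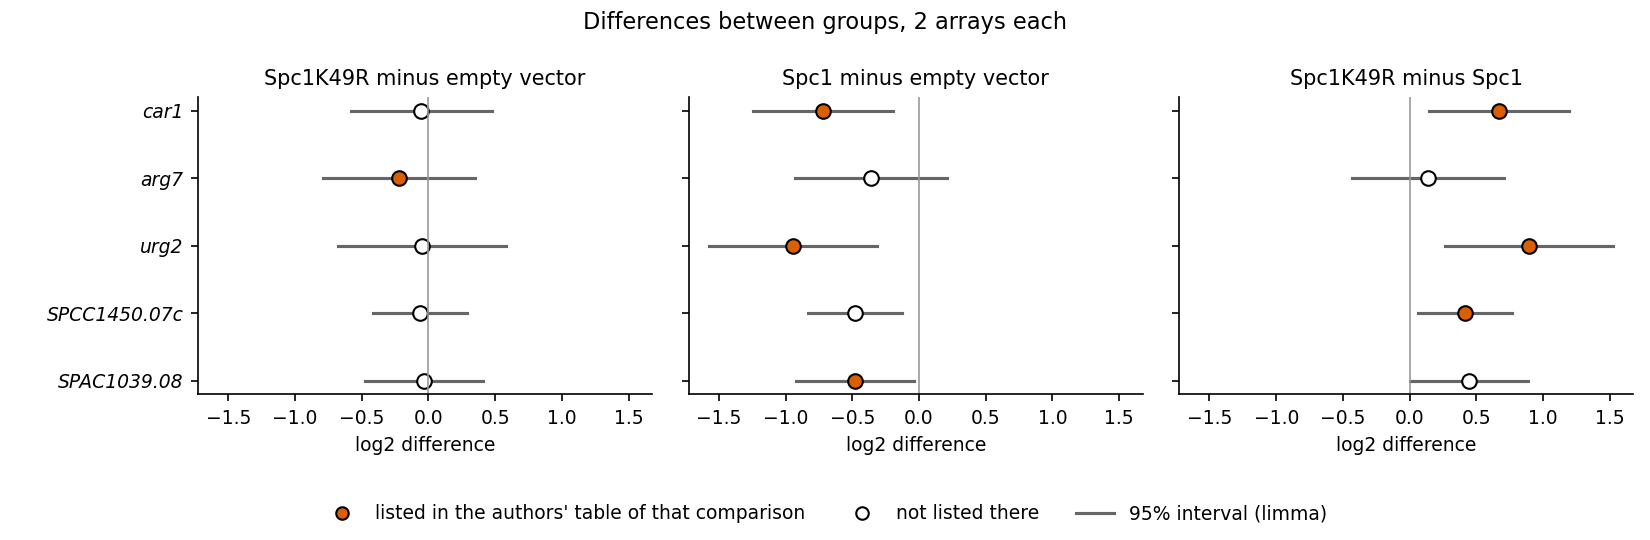
Log2 differences between groups (horizontal axis) with 95% limma intervals for the 5 genes in 3 comparisons; filled points are comparisons whose deposited table lists the gene, open points those whose table does not. Spc1 minus empty vector runs from -0.94 for urg2 to -0.36 for arg7, Spc1K49R minus empty vector from -0.22 for arg7 to -0.03 for SPAC1039.08, and Spc1K49R minus Spc1 from 0.14 for arg7 to 0.90 for urg2.

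Counted over the list, both Spc1K49R arrays were below both empty-vector arrays for 2 of the 5 genes, arg7 and SPCC1450.07c, where 11.7% of all probe sets had that order. Both Spc1 arrays were below both empty-vector arrays for all 5 genes, where 14.4% of all probe sets had that order. Both Spc1K49R arrays were above both Spc1 arrays for 4 of the 5, all but arg7, against 21.6% of all probe sets. Because the genes come from lists made on these arrays, such counts are fixed in large part by that choice, and nothing is read from them. The median log2 difference of the 5 genes was -0.05 for Spc1K49R against empty vector, -0.48 for Spc1 against empty vector and 0.45 for Spc1K49R against Spc1. Over all probe sets the medians were 0.00, -0.05 and 0.05. Any 2 of these comparisons have a group of arrays in common.

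How the 5 genes stood among all probe sets differed between the Spc1 arrays. On Spc1 replicate 2, which had an SD of 0.15 and a 5' minus 3' difference of -0.10, 0.335% of the 8960 probe sets had a lower value than urg2. The share was 0.781% for car1, 1.38% for SPCC1450.07c and 4.15% for SPAC1039.08, whereas 73.5% lay below arg7. On Spc1 replicate 1, with its far wider spread, 12.3% of probe sets were lower than urg2, 16.8% lower than car1, and 26.1% to 26.7% lower than each of the other 3 genes. The values of car1, urg2, SPCC1450.07c and SPAC1039.08 were thus larger in size on replicate 1 but further out in the distribution on replicate 2. The authors had listed each of these genes as lower with Spc1 on these same arrays. Their low places are fixed in large part by that choice, and nothing is read from them. Set against the empty-vector mean, the difference on replicate 2 amounted to 72.8% of that on replicate 1 for SPCC1450.07c, 58.6% for SPAC1039.08, 53.6% for urg2, 51.9% for car1 and 11.5% for arg7.

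**Figure D4:**
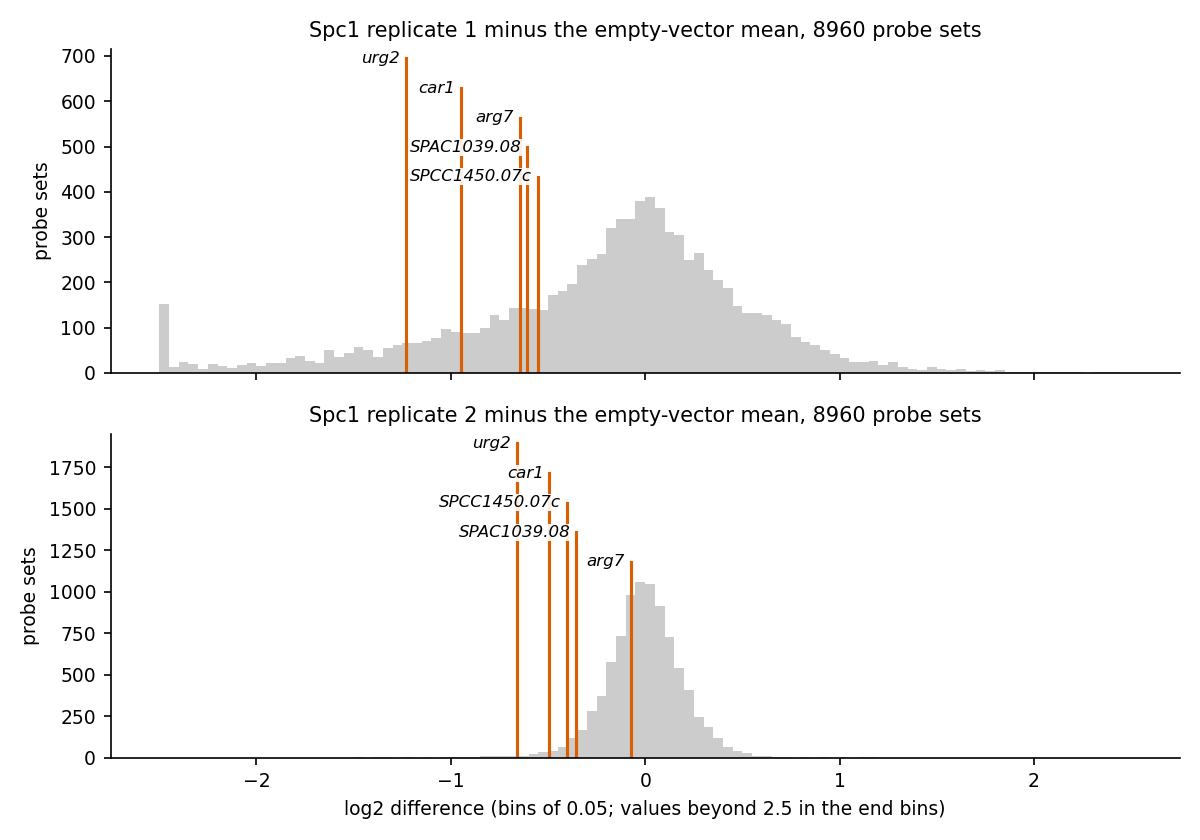
Histograms of the log2 difference of each Spc1 array from the empty-vector mean (horizontal axis) over 8960 probe sets (vertical axis, number of probe sets), with lines at the 5 genes whose height has no meaning; values beyond 2.5 are in the end bins. On replicate 1 the genes lie from -1.23 (urg2) to -0.55 (SPCC1450.07c) inside a wide distribution, and on replicate 2 urg2 (-0.66), car1 (-0.49), SPCC1450.07c (-0.40) and SPAC1039.08 (-0.36) lie in its lower tail while arg7 (-0.07) lies near the middle.

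Likeness of pattern was described by Pearson's r over the 6 arrays, among the 72 S. pombe probe sets with 1 gene name. These probe sets carry names because the authors listed them for differences on the same arrays. High r among them is in part built in by that choice, and nothing is read from it. The r values share arrays, and Spc1 replicate 1 with its wide spread weighs most in them. For that reason r over the 5 arrays without it is given as well. The nearest patterns to car1 were those of urg2 (r = 0.987, or 0.954 without that array), urg1 (0.981, or 0.924) and SPAC1039.08 (0.960, or 0.890). For urg2 they were car1, urg1 (0.967, or 0.879) and SPBC25H2.10c, a predicted tRNA acetyltransferase (0.957, or 0.880). SPCC1450.07c was nearest to aph1, which encodes a diadenosine tetraphosphate hydrolase (0.969, or 0.974), SPCC162.01c, a predicted spliceosomal subunit (0.964, or 0.931), and hem14, the predicted protoporphyrinogen oxidase of heme synthesis (0.960, or 0.962). SPAC1039.08 was nearest to SPAC27D7.09c of the But2 family (0.981, or 0.959), SPBC1604.09c, a predicted exoribonuclease (0.965, or 0.904), and car1.

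The arg7 pattern was nearest to SPAC343.13, a predicted subunit of mitochondrial glutamyl-tRNA amidotransferase (r = 0.989, or 0.945 without Spc1 replicate 1). Next came the kinase gene gsk3 (0.954, or 0.750) and the splicing factor gene sap49 (0.937, or 0.582), where the value was lower without that array. None of the 3 is among the neighbours listed for the other 4 genes. Of the 71 other named probe sets, 6 reached an r of 0.95 or more with car1, 4 each with SPCC1450.07c and SPAC1039.08, 3 with urg2 and 2 with arg7. Of all 8959 other probe sets, 84 reached it with arg7, 76 with car1, 66 with urg2, 62 with SPAC1039.08 and 24 with SPCC1450.07c.

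The rest of these pathways could be seen only where a gene had a name in the files. In the arginine and urea list 2 of 15 genes were named, car1 and arg7. In the uracil and pyrimidine list 2 of 12 were, urg1 and urg2, in the list of nitrogen starvation and nitrogen sources 2 of 19, SPAC1039.08 and SPCC1450.07c, and in the amino acid synthesis list 1 of 35, arg7. With limma 0 of these passed in either direction in any comparison.

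Another enzyme of arginine use, chosen after its values were seen, was SPAC11D3.09, a predicted agmatinase, the enzyme that releases urea from decarboxylated arginine. It read -0.13 on Spc1K49R replicate 1 and -0.03 on the array labelled Spc1K49R replicate 2, -0.01 and 0.01 on the Spc1 arrays, and 0.45 and 0.20 on the empty-vector arrays. Here the 4 overexpression arrays lay together below the empty-vector arrays. That order was shared with arg7, SPCC1450.07c and urg1, and not with car1, urg2 or SPAC1039.08. Its share of all probe sets was not counted. Taken one form at a time, 11.7% of all probe sets had it with Spc1K49R and 14.4% with Spc1. Nothing is read from the order. The difference of SPAC11D3.09 from empty vector was -0.40 (SE 0.15) with Spc1K49R, for which the authors listed it. With Spc1 it was -0.33 (SE 0.15, limma adjusted p = 0.79).

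On the nucleoside side, SPBC800.11, a predicted nucleoside hydrolase also chosen after its values were seen, ran the other way from urg2. It read -0.58 on Spc1K49R replicate 1 and -0.26 on the array labelled Spc1K49R replicate 2, 0.30 and 0.26 on the Spc1 arrays, and -0.61 and 0.33 on the empty-vector arrays. The Spc1 arrays were above both Spc1K49R arrays, for which comparison the authors listed it, and the empty-vector arrays spanned the values of both forms. Its difference from empty vector changed sign without empty-vector replicate 2 for Spc1K49R and without empty-vector replicate 1 for Spc1.

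Genes of mating and meiosis, which cells start to express when nitrogen runs short, had 9 named probe sets from a list of 15 genes. Their median was 0.13 on Spc1K49R replicate 1 and 0.12 on the array labelled Spc1K49R replicate 2, -0.11 and -0.07 on the Spc1 arrays, and -0.26 and -0.19 on the empty-vector arrays. These medians hide probe sets going both ways. With Spc1 4 of the 9 were above both empty-vector arrays on both arrays and 2 were below, and the log2 differences ran from -1.25 to 0.63. With Spc1K49R 6 of the 9 were above in the same way and 0 were below, with differences from -0.44 to 0.56. Of all probe sets, 14.4% were below with Spc1 and 11.7% with Spc1K49R. The shares above are not given here, and nothing is read from these counts. On Spc1 replicate 1 single probe sets read from -1.33 to 0.63. No mating or meiosis probe set passed with limma in any comparison, and these probe sets too carry names because the authors listed them on the same arrays.

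In the authors' deposited table for Spc1 against empty vector, urg2 is given as 1.82-fold lower with an unadjusted p of 0.0377, car1 as 1.62-fold lower with 0.0494 and SPAC1039.08 as 1.45-fold lower with 0.0383. The authors' deposited table for Spc1 and Spc1K49R gives urg2 as 1.83-fold lower with Spc1 with 0.0282, car1 as 1.53-fold lower with 0.0395 and SPCC1450.07c as 1.33-fold lower with 0.0483. For arg7 the authors' deposited table of Spc1K49R against empty vector gives 1.19-fold lower with 0.0466. Listing required an unadjusted p under 0.05, and car1 against empty vector was the entry of the 5 genes nearest to that limit. SPAC1039.08 between the 2 forms and SPCC1450.07c for Spc1 against empty vector are not listed in the authors' deposited tables. Their unadjusted limma p-values, given above, were below 0.05, but neither passed after adjustment. The authors' test followed a filter on raw signal and was not the same as the limma fit here. Both genes had been listed on the same Spc1 arrays, so these p-values are no separate evidence.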

How the data were processed

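RNA was hybridised to Affymetrix yeast arrays after biotin labelling of cRNA, per the labels' protocols. The deposited value table holds log2 values with a median of 0 over the 6 arrays for every probe set. How the authors normalized them is not given in the sources used here. For listed probe sets the authors deposited a fold change (ratio), also as log2, with a p-value. Per the file headers, a moderated test at 0.05 without correction followed a filter on raw signal percentile (10 to 100). The tables' mutant B was taken as Spc1 and mutant C as Spc1K49R, because their fold changes correlated with those of these groups (r = 0.995 and 0.974 against wild type, across probe sets). Their 6 columns of group means were not used.

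The test was limma's (version 3.58.1, R 4.3.3), two-sided, with a mean per group over all 6 arrays, 3 residual degrees of freedom and Benjamini-Hochberg adjustment over 8960 probe sets at 0.05; 173 control probe sets were left out. The labels do not say how cultures were separated, so p-values measure the spread between these arrays, whose number limits precision. The fit was checked on simulated data. With each array's spread over all probe sets it recovered most 4-fold changes and no 2-fold changes, the only sizes simulated. That spread is not the spread of these 5 genes, so the simulation cannot tell which changes in them the fit would find. A count of 0 passing does not show that nothing changed. The 5 genes and the gene lists were chosen with earlier results of these data known. The rule for names took all 5 genes, sty1, list members named in the files and the 3 nearest patterns. Poly-A controls comprised 39 probe sets. A gene table of assembly ASM294v3 gave gene order only.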

Additional observations from a re-analysis of the deposited data

How the results depend on the processing

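For each of the 5 genes, the direction of Spc1 against empty vector held in every run able to change the difference. Those runs were array centring, a 5' minus 3' covariate, and each Spc1 or empty-vector array left out. Another left out Spc1 replicate 1 together with the array labelled Spc1K49R replicate 2. Further runs were robust variances, array weights, the replicate block, control probe sets kept, only the 4 arrays compared, a threshold of 0.1 and each Spc1K49R array left out. In these the difference of Spc1 from empty vector stays the same by design, so they say nothing on its direction. The genes had also been listed on these same arrays. Leaving out arrays in turn gave -0.95 to -0.49 for car1, -0.64 to -0.074 for arg7, -1.23 to -0.66 for urg2, -0.55 to -0.40 for SPCC1450.07c and -0.61 to -0.36 for SPAC1039.08. For Spc1K49R against Spc1 it gave 0.44 to 0.90 for car1, -0.15 to 0.42 for arg7, 0.61 to 1.18 for urg2, 0.34 to 0.49 for SPCC1450.07c and 0.32 to 0.57 for SPAC1039.08. The upper sizes all came from leaving out Spc1 replicate 2, the only setting in which any of the 5 passed. The number of probe sets passing then ranged from 0 to 2968 for Spc1 and from 0 to 3234 for the 2 forms, the high ends from that fit, in which Spc1 replicate 1 stood alone and was assumed to vary like the other groups. For arg7 the difference between the forms was -0.12 with the covariate and -0.17 with those 2 arrays out; the cause was not tested. Against empty vector Spc1K49R ranged from -0.16 to 0.057 for car1, -0.20 to 0.10 for urg2 and -0.13 to 0.061 for SPAC1039.08 with 1 array left out, and without both those arrays it was 0.057, 0.028 and 0.061. The sign was therefore not settled for these 3 genes. For SPBC800.11 the difference from empty vector ranged from -0.75 to 0.19 with Spc1K49R and from -0.045 to 0.89 with Spc1. For sty1, Spc1K49R against empty vector ranged from -0.31 to 2.25. The replicate block left 0 probe sets passing with limma in each comparison, with 3, 103 and 151 at an unadjusted p under 0.05 for Spc1K49R against empty vector, Spc1 against empty vector and Spc1K49R against Spc1. The replicate numbers were not taken to pair the arrays, as the labels name no pairing. Deviations from the group mean correlated at 0.47 between Spc1 and empty vector. The correlation was 0.10 between Spc1K49R and Spc1 and 0.07 between Spc1K49R and empty vector. Whether replicates of the same number were handled together was not tested.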
